A study of Mus musculus with 12 samples.

Results

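The 10 genes described here encode cell adhesion molecules of the immunoglobulin superfamily, by which leukocytes hold on to vessels and glia and by which neural cells hold on to each other: *Icam1*, *Icam2*, *Icam4*, *Icam5*, *Vcam1*, *Alcam*, *Mcam*, *Ncam1*, *Esam* and *L1cam*. They were chosen by symbol from the 45563 gene symbols of the expression tables. All 10 symbols were in the tables, and 9 of them passed the limit on low values that was set for testing, a mean of at least 0.1 FPKM (fragments scaled by gene length and library depth), while *Icam2* did not. The libraries came from primary oligodendrocyte precursor cells (OPCs), the dividing glial cells that give rise to myelinating oligodendrocytes. OPCs were taken from the cortices of C57BL/6 pups of postnatal days 2 to 5 with magnetic beads against PDGFRα, grown for 3 days in vitro with PDGF-AA and other supplements, and sequenced as bulk RNA. The groups were wild-type OPCs without stimulation (WT NS), OPCs labeled TNFR2-/- without stimulation (TNFR2-/- NS), and the same genotypes after a cocktail of TNF, IFNγ and IL1β at 25 ng/mL each for 3 h (WT St and TNFR2-/- St), with 3 libraries in each of the 4 groups. NS cultures received PBS vehicle. The disruption of the TNF receptor gene *Tnfrsf1b* in the mice labeled TNFR2-/- is described as germline and not as restricted to OPCs, so that other cells of the culture would carry the same genotype.

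ICAM and VCAM proteins are ligands for leukocyte integrins. ICAM1 binds the integrins LFA-1 and Mac-1, VCAM1 binds the integrin VLA-4, and transcription of both genes is known to be switched on by NF-κB in endothelial cells and astrocytes exposed to TNF or IL1β. ICAM2 is a constitutive endothelial ligand, ICAM4 is a red cell surface protein, and ICAM5, or telencephalin, is known from dendrites of forebrain neurons. ALCAM and MCAM are adhesion receptors of leukocytes, endothelium and pericytes, ESAM lies at endothelial junctions, NCAM1 is the neural adhesion molecule that carries polysialic acid on OPCs, and L1CAM guides axons. The comparisons asked how the cytokines changed the transcripts of OPCs, and whether that change differed in the OPCs labeled TNFR2-/-.

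Depth was alike across libraries, with 26886878 to 30335265 read pairs in each, as recovered from the deposited values. *Tnfrsf1b*, the targeted gene, had more reads in the libraries labeled TNFR2-/-: 12 to 24 reads in WT NS against 213 to 346 in TNFR2-/- NS (limma log2 fold change 2.35 ± 0.21 SE, adjusted p = 0.00134), and 61 to 145 in WT St against 282 to 356 in TNFR2-/- St (1.28 ± 0.21 SE, 0.0160). Gene totals do not show whether those reads covered the disrupted part, so that every direction given below for a genotype is for libraries as labeled. The 5 genes used as a check of the cytokines (*Nfkbia*, *Tnfaip3*, *Irf1*, *Ccl2* and *Cxcl10*) rose in both genotypes, with a median log2 fold change of 7.24 in WT and 6.69 in the OPCs labeled TNFR2-/-. OPC markers were strong in every library, with 7 markers summed in reads per kilobase of exon, scaled to library depth (RPKM). The sum was 1559 to 1733 in WT NS, 1610 to 1827 in TNFR2-/- NS, 1176 to 1301 in WT St and 1242 to 1358 in TNFR2-/- St. Between the stimulated groups, 4 of these markers were higher and 3 lower in TNFR2-/- St. Of the lower ones, 1 passed the limits for a call given below, as did 1.80% of all genes. *Ptprc*, the pan-leukocyte marker, had 0 to 2 reads in a library. Both libraries of the culture numbered 5 among those labeled TNFR2-/- stood apart by the astrocyte gene *Gfap*, with 10491 and 10010 reads against 251 to 1926 in the other 10 libraries. Genotype differences of the members were also computed without that culture, an alternative chosen after the data were seen.

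Levels between genes were compared per length, because the length by which the deposited FPKM of a gene was divided was unrelated to the length of its exons (Spearman rho 0.01 across 16007 genes). For *Icam1* that divisor was 94 bases and the annotated exons hold 4360. FPKM is used below only to compare libraries for the same gene, and RPKM over annotated exons to compare genes. In WT NS, *Ncam1* was the highest member at 43.7 ± 2.21 RPKM (SD, n = 3), and its libraries (41.3 to 45.7) lay above those of *Alcam* (33.0 to 40.8). *Mcam* (10.5 to 12.3) and *Vcam1* (7.49 to 12.8) followed and overlapped each other. The other 6 members were below 1 RPKM: *L1cam* at 0.354 to 0.640, *Esam* at 0.326 to 0.337, *Icam1* at 0.137 to 0.359 and *Icam5* at 0.181 to 0.328, among which *Icam1* overlapped each of its neighbors *Esam* and *Icam5*, and then *Icam2* and *Icam4* at no more than 0.060.

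**Figure D1:**
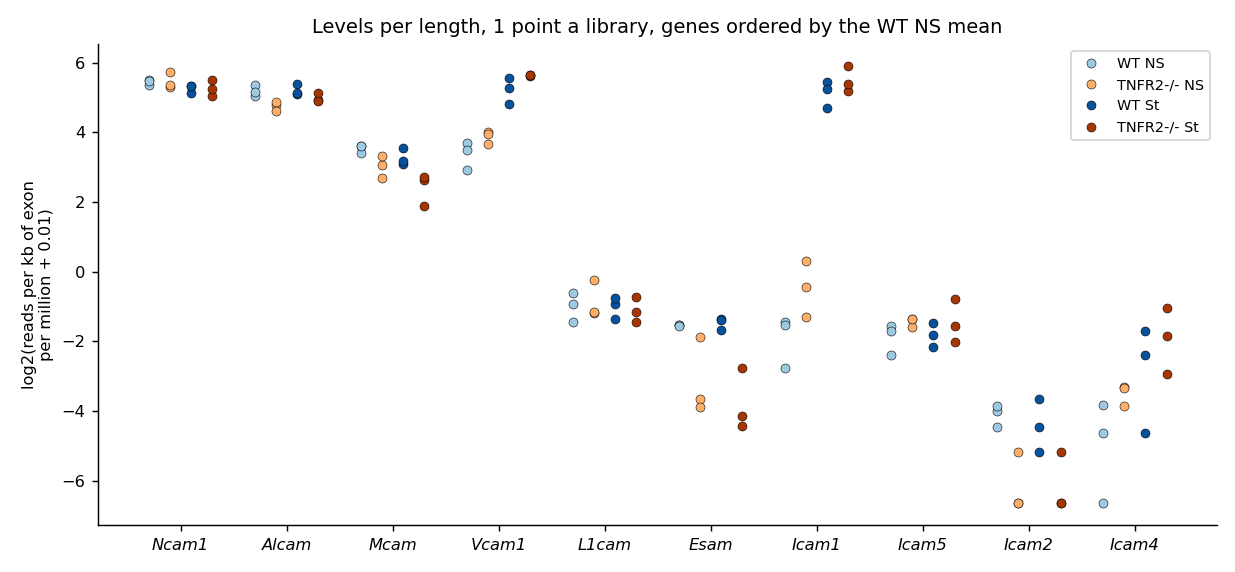
Levels per length of the 10 members on a log2 axis (RPKM over exons, with 0.01 added), with 1 point for each of the 12 libraries, colored by group, and genes ordered by their WT NS mean. *Icam1* lies below 1 RPKM in every WT NS library and at 25.9 to 60.0 in the 6 stimulated libraries.

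After stimulation the order changed. In WT St, *Ncam1* (35.2 to 40.4 RPKM), *Vcam1* (28.2 to 47.1), *Alcam* (34.3 to 41.6) and *Icam1* (25.9 to 43.3) overlapped in range, and in TNFR2-/- St *Vcam1* (48.7 to 50.5) and *Icam1* (36.5 to 60.0) had the highest means. *Icam1* moved from rank 7 of the 10 members to rank 4 in WT and from rank 5 to rank 2 in the OPCs labeled TNFR2-/-. These ranks are a description and carry no test.

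*Icam1* (ENSMUSG00000037405), a ligand for leukocyte integrins, lies on chromosome 9 of GRCm38, from 21015985 to 21028817 on the plus strand. Next to it on the same strand stand *Icam4* (21029373 to 21030595) and *Icam5* (21032073 to 21039036), with 555 bases between *Icam1* and *Icam4* and 1477 between *Icam4* and *Icam5*. In all, 6 of the 10 members are on chromosome 9, *Mcam*, *Ncam1* and *Esam* being the others. The 250 bases before the RefSeq start site are shown for these 3 neighbors, which lie close together and differed in their response to the cytokines. They are printed 5′ to 3′ from the plus strand of GRCm38.p6, at chr9:21015690-21015939 for *Icam1*, chr9:21029182-21029431 for *Icam4* and chr9:21031788-21032037 for *Icam5*, with matches to the searched motifs in capitals.
Icam1: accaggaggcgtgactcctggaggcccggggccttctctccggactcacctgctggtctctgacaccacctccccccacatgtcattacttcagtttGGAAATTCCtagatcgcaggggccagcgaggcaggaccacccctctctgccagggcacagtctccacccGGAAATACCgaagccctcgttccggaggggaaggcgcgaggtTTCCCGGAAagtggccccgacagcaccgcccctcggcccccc
Icam4: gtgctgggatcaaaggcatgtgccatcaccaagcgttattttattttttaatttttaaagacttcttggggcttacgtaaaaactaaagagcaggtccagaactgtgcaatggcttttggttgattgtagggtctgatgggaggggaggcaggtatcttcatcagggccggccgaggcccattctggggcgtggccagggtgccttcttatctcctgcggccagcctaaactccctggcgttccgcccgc
Icam5: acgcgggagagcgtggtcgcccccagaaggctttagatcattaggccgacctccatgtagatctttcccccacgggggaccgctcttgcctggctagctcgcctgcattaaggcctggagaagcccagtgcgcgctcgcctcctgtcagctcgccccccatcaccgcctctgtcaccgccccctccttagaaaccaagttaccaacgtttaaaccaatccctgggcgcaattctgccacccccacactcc

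The motifs were searched on both strands of the 300-base promoter window, which adds the 50 bases after the start. They were GGNNNTTCC, a pattern of NF-κB sites, TTCNNNGAA, a pattern of STAT sites, and a pair of GAAA words with 2 bases between them, a pattern of sites for interferon regulatory factors. In the *Icam1* window the NF-κB pattern matched at 153 bases before the start (GGAAATTCC, which holds the pattern on each strand) and at 84 bases before it (GGAAATACC), and the STAT pattern matched at 42 bases before it (TTCCCGGAA, which also holds its pattern on each strand). No match overlapped another. Of all 32851 promoters of the same length, 18.5% held the NF-κB pattern, 8.30% the STAT pattern, 3.44% the interferon pattern, and 1.66% both of the first ones. Promoters were at hand for 6 members, and the windows of *Icam4*, *Icam5*, *Alcam*, *Mcam* and *L1cam* held none of these letters; those of *Vcam1*, *Icam2*, *Ncam1* and *Esam* were not analyzed here. A match describes letters in a window and not a bound site.

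*Icam1* rose in every culture under the cytokines, and by more than any other member. In WT NS its FPKM was 16.7, 6.33 and 15.6 in replicates 2, 3 and 4, from 47, 16 and 44 reads. In WT St it was 2010, 1202 and 1743, from 3391 to 5683 reads. The lowest stimulated library was far above the highest unstimulated one, and the log2 fold change was 7.03 ± 0.44 SE (131-fold, limma adjusted p = 1.27e-06). In the libraries labeled TNFR2-/- NS, replicates 2, 4 and 5 had 18.4, 33.4 and 57.2 FPKM. The corresponding libraries labeled TNFR2-/- St had 1695, 1934 and 2785. Again the groups did not overlap (5.97 ± 0.44 SE, 62.8-fold, adjusted p = 3.87e-06). Culture by culture, stimulated *Icam1* was 121, 190 and 112 times the unstimulated value in WT replicates 2, 3 and 4, and 92.2, 57.9 and 48.7 times in replicates 2, 4 and 5 labeled TNFR2-/-. All 3 WT ratios were thus above all 3 of the other genotype, but the difference between the genotypes in the change missed the threshold (interaction −1.06 ± 0.62 SE, 95% confidence interval −2.43 to 0.31, adjusted p = 0.727), and with cultures as a block it was 0.124.

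Without stimulation the genotypes differed in the other direction. Every library labeled TNFR2-/- NS had more *Icam1* than every WT NS library, but the lowest (18.4 FPKM) was close to the highest WT library (16.7). The difference was 1.43 ± 0.44 on the log2 scale (2.69-fold, adjusted p = 0.0614), which missed the threshold, and without culture 5 it was 1.03 (adjusted p = 0.163; 0.0491 to 0.209 over 25 alternatives). The summed level of 6 astrocyte markers was also higher in these libraries, at 210 to 440 RPKM in TNFR2-/- NS against 135 to 162 in WT NS, and the highest value of both *Icam1* and these markers was in culture 5. The part of that in the *Icam1* difference was not tested. After stimulation the genotypes overlapped (0.37 ± 0.44 SE, 95% confidence interval −0.60 to 1.34, adjusted p = 0.622).

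*Vcam1* (ENSMUSG00000027962), a ligand for the integrin VLA-4 of lymphocytes and monocytes, lies on the minus strand of chromosome 3 from 116109949 to 116129688. It rose about 3.5 times, with a larger base than *Icam1* and very similar ratios across cultures. WT NS libraries had 21.0, 12.3 and 18.3 FPKM and WT St libraries 77.2, 46.3 and 63.0, from 7517 to 12557 reads when stimulated. The groups did not overlap (1.83 ± 0.21 SE, 3.55-fold, adjusted p = 0.000140). Libraries labeled TNFR2-/- NS had 20.6, 26.3 and 25.3 FPKM and those labeled TNFR2-/- St had 80.0, 82.8 and 82.1, again without overlap (1.75 ± 0.21 SE, 3.36-fold, adjusted p = 0.000145). The ratio of stimulated to unstimulated *Vcam1* lay between 3.15 and 3.88 in all 6 cultures. The genotypes did not differ detectably in that change (interaction −0.08 ± 0.29 SE, 95% confidence interval −0.73 to 0.57). In TNFR2-/- St all 3 libraries were above all 3 of WT St, but the difference of 0.42 ± 0.21 SE missed the threshold (adjusted p = 0.223), as did that of 0.50 ± 0.21 SE without stimulation (adjusted p = 0.136).

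**Figure D2:**
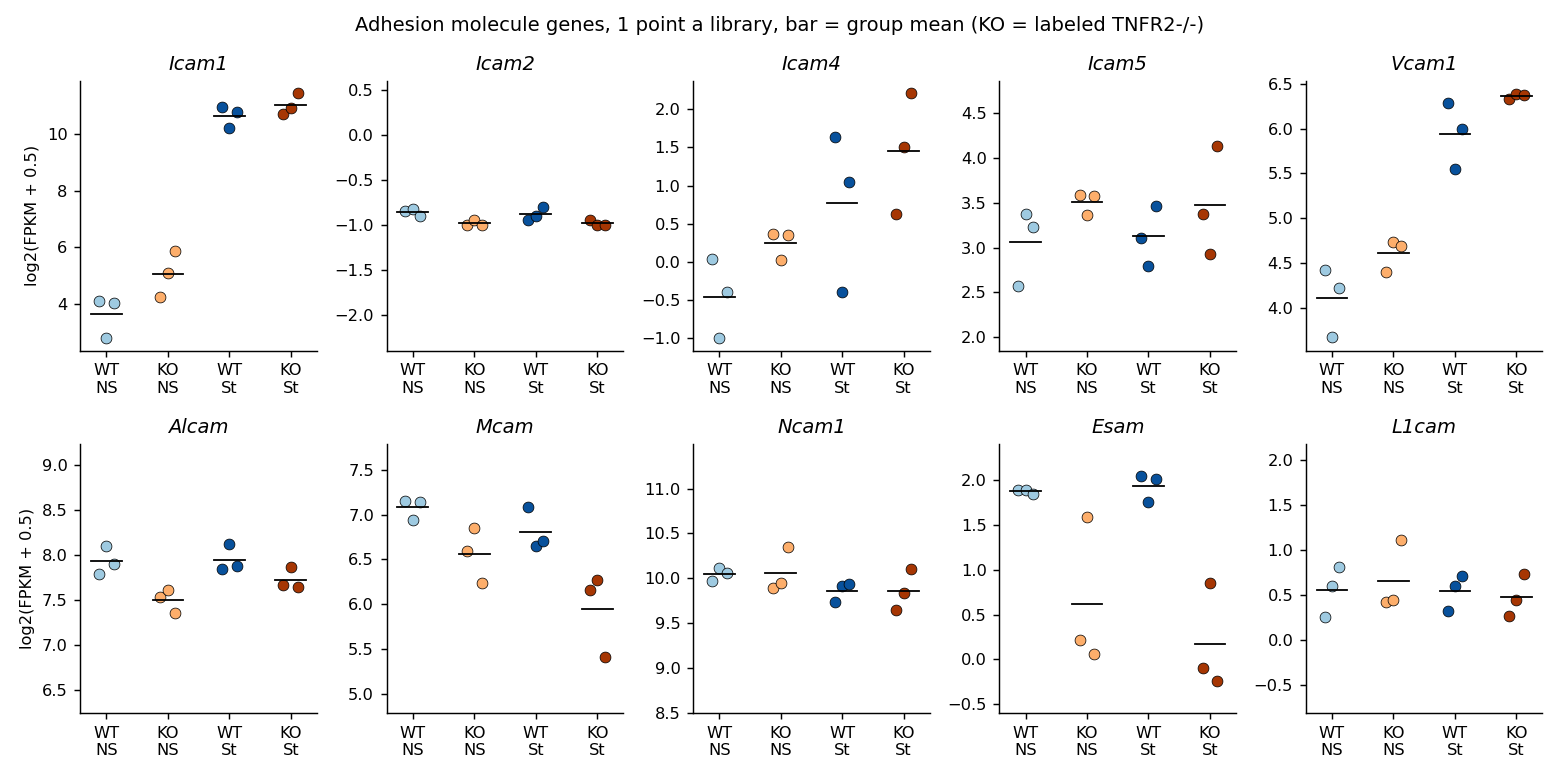
log2(FPKM + 0.5) of the 10 members in the 12 libraries, 1 panel for each gene with its own axis, 1 point for each library and a bar at the group mean (KO, labeled TNFR2-/-). *Icam1* and *Vcam1* are higher in every stimulated library than in every unstimulated one, and *Esam* and *Mcam* are lower in every library labeled TNFR2-/- St than in every WT St library.

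*Icam1* and *Vcam1* were the 2 of 9 tested members that passed the threshold in each stimulation comparison, both upward. Over all 18081 genes tested, 7.53% passed in WT and 10.1% in the OPCs labeled TNFR2-/-. Calls required an adjusted p no higher than 0.05, a change of at least 1.5-fold and a mean FPKM of 1 or more. The median log2 fold change of the 9 members was 0.06 in WT and −0.03 in the OPCs labeled TNFR2-/-, against −0.06 and −0.11 for all genes tested. Over the 12 libraries, the genes whose log values were most like those of *Icam1* among 13554 genes were *Idnk*, *Igtp* and *Gm4951* (Pearson's r 0.995, 0.994 and 0.994), and those most like *Vcam1* were *Slc39a1*, *Parp3* and *Xaf1* (0.986, 0.986 and 0.985). These correlations describe a step between 6 stimulated and 6 unstimulated libraries.

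**Figure D3:**
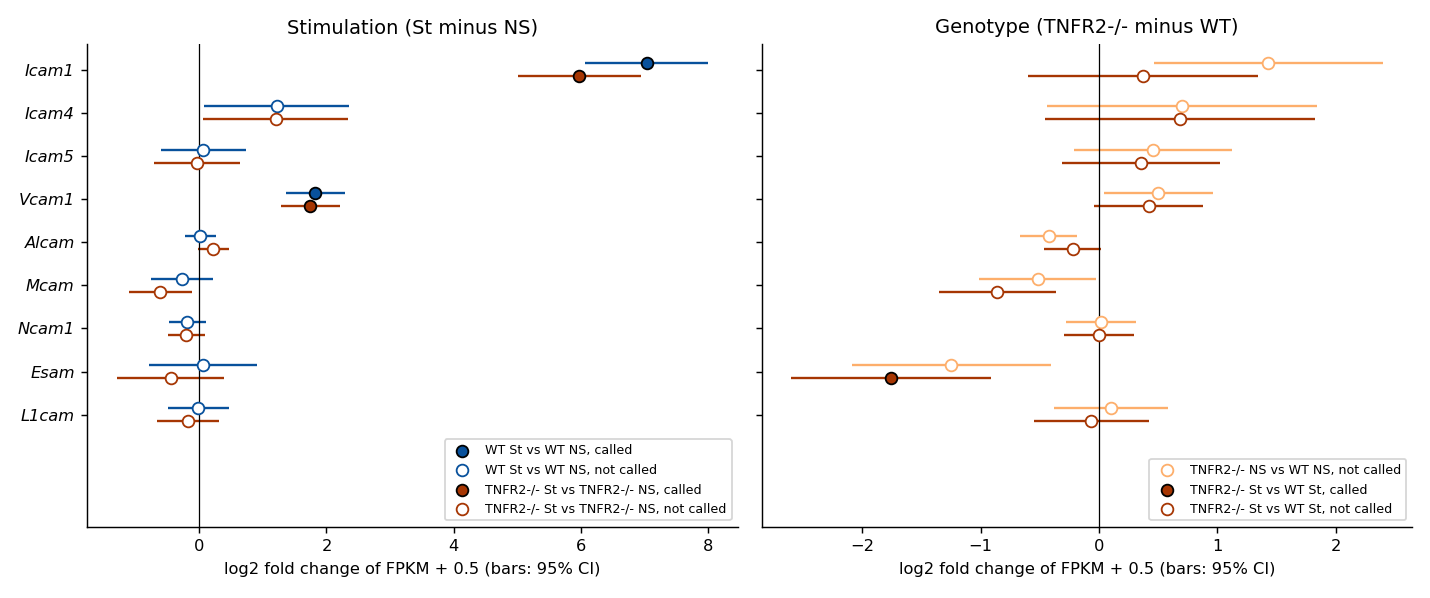
log2 fold changes of FPKM + 0.5 with 95% confidence intervals from limma for the 9 tested members, for stimulation on the left and genotype on the right, where filled points passed the threshold for a call. On the left only *Icam1* and *Vcam1* are filled, and on the right only *Esam* in stimulated OPCs.

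*Icam4* and *Icam5*, the neighbors of *Icam1*, had few reads. *Icam4* had 2, 0 and 1 reads in the WT NS libraries and 10, 1 and 6 in WT St. It had 3, 2 and 3 reads in the libraries labeled TNFR2-/- NS and 4, 9 and 15 in TNFR2-/- St, so that only the second pair of groups did not overlap. The log2 fold changes of 1.22 ± 0.51 SE and 1.20 ± 0.51 SE missed the threshold (adjusted p = 0.151 and 0.115). With cultures as a block both passed it (adjusted p = 0.0303 and 0.0234, where 8.79% and 11.3% of all genes were called), and the adjusted p ranged from 0.0242 to 0.418 and from 0.0234 to 0.369 over the alternatives. *Icam4* averaged 0.26 FPKM in WT NS and 0.69 in TNFR2-/- NS, against 1.48 in WT St and 2.50 in TNFR2-/- St. It reached the mean of 1 FPKM needed for a call only through the stimulated libraries. At its unstimulated level it could not have been called. The ratio of summed reads, scaled by depth, was 5.46 (exact 95% interval 1.58 to 29.1) in WT and 3.57 (1.58 to 9.06) in the OPCs labeled TNFR2-/-, where the intervals cover counting error only. All 1110 exon bases of *Icam4*, and 511 of those of *Icam1*, are also covered by the antisense gene *Gm47079* of the annotation, and whether the counting used strand is not given in the sources used here, so that sense and antisense reads cannot be told apart. The nearest *Icam1* exons end 555 bases away and rose to 3391 to 7513 reads in the stimulated libraries; their part in the *Icam4* reads was not tested.

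*Icam5* held 16 to 34 reads in each unstimulated library and 19 to 48 in each stimulated one, with log2 fold changes of 0.07 ± 0.30 SE in WT (95% confidence interval −0.60 to 0.74) and −0.03 ± 0.30 SE in the OPCs labeled TNFR2-/- (−0.70 to 0.64). No change was detectable at this depth, and 907 of the exon bases of *Icam5* are shared with antisense genes of the annotation. *Icam2*, the constitutive endothelial ligand, had 3, 3 and 2 reads in WT NS and 1, 2 and 4 in WT St, and 0, 1 and 0 and then 1, 0 and 0 in the corresponding libraries labeled TNFR2-/-. It was not tested. The ratio of summed *Icam2* reads between genotypes was 0.120 without stimulation (exact 95% interval 0.00270 to 0.893) and 0.145 with it (0.00321 to 1.13).

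**Figure D4:**
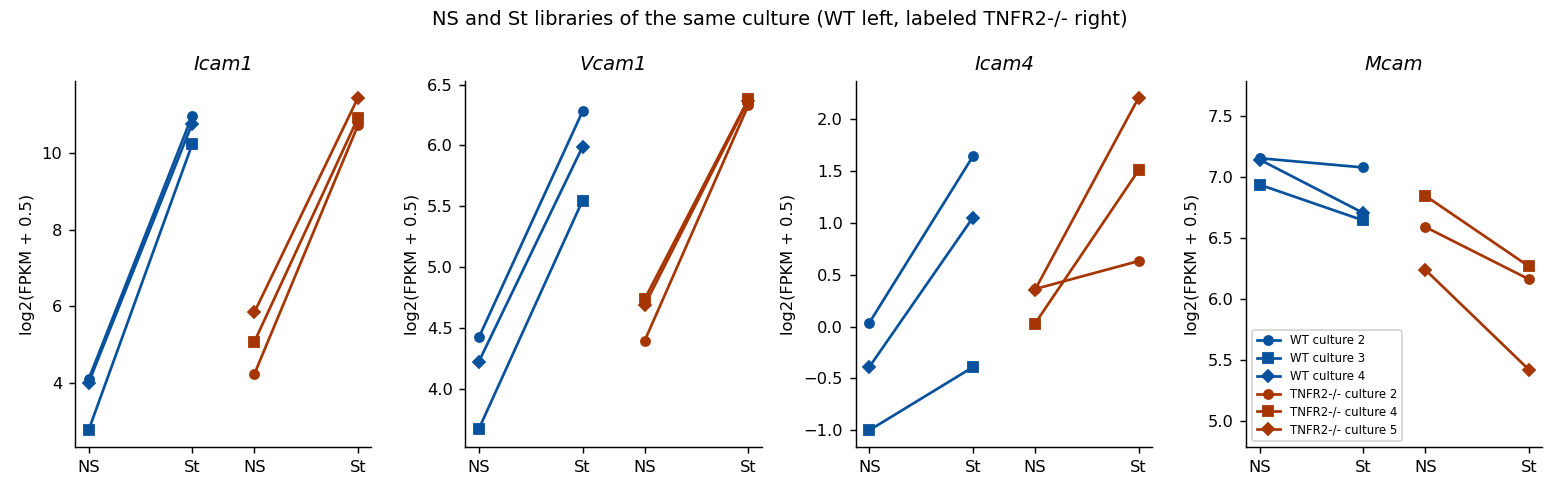
log2(FPKM + 0.5) of *Icam1*, *Vcam1*, *Icam4* and *Mcam* in the NS and St libraries of the same culture, joined by a line, with WT in blue on the left of each panel and the OPCs labeled TNFR2-/- in brown on the right. The lines of *Vcam1* are nearly parallel, those of *Mcam* all fall, and those of *Icam4* all rise by unequal amounts.

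*Mcam* (ENSMUSG00000032135), an adhesion receptor known from endothelium, pericytes and some T cells, lies on the plus strand of chromosome 9 from 44134469 to 44142727. Its values were lowest in the stimulated OPCs labeled TNFR2-/-. WT NS libraries had 142, 122 and 141 FPKM and WT St libraries 135, 99.6 and 104. Libraries labeled TNFR2-/- NS had 95.9, 115 and 75.1, and those labeled TNFR2-/- St had 71.1, 76.5 and 42.3. The stimulated value was below the unstimulated one in all 6 cultures. In the OPCs labeled TNFR2-/- the change of −0.61 ± 0.22 SE missed the threshold (adjusted p = 0.0696), and passed it with cultures as a block (adjusted p = 0.00209, where 11.3% of all genes were called) and with the replicate number as a block, where 11.2% were. Over 26 alternatives the adjusted p was 0.00209 to 0.200. In WT it was −0.27 ± 0.22 SE (adjusted p = 0.511). The genotypes did not overlap in either condition: *Mcam* in libraries labeled TNFR2-/- was 0.698 times that of WT without stimulation (−0.52 ± 0.22 SE, adjusted p = 0.147; −0.36 without culture 5) and 0.551 times with it (−0.86 ± 0.22 SE, 0.0517), the latter just missing the threshold. It passed with voom on the recovered reads (adjusted p = 0.0355, where 2.41% of all genes were called) and missed without culture 5 (−0.60, 0.0656). With the replicate number as a block it also passed (−0.72, adjusted p = 0.0153, where 2.39% were called). A shared number did not pair libraries across genotypes, however, so that this fit is no paired comparison of them. Over 25 alternatives the adjusted p was 0.0153 to 0.128.

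*Esam* (ENSMUSG00000001946), a junctional molecule of endothelium, lies on the plus strand of chromosome 9 from 37528078 to 37538319, and was the only member called between genotypes. WT NS libraries had 3.19, 3.19 and 3.08 FPKM, from 29, 26 and 28 reads. Libraries labeled TNFR2-/- NS had 0.658, 2.51 and 0.544 FPKM, from 6, 23 and 5 reads. Stimulated WT libraries had 3.62, 2.86 and 3.51 FPKM, and those labeled TNFR2-/- St had 0.440, 1.31 and 0.345, from 4, 12 and 3 reads. WT values were steady and those of the other genotype were lower in every library, with replicate 4 the closest to WT in both conditions. The difference was −1.76 ± 0.38 SE in stimulated OPCs (0.296 times, adjusted p = 0.0338), in a comparison where 1.80% of all genes were called. It was −1.25 ± 0.38 SE without stimulation (0.421 times, adjusted p = 0.0607), which missed the threshold, and −0.97 without culture 5 (adjusted p = 0.157). By summed reads the ratios were 0.212 (exact 95% interval 0.122 to 0.350) and 0.392 (0.255 to 0.591), covering counting error only. With stimulation *Esam* changed by 0.06 ± 0.38 SE in WT and by −0.45 ± 0.38 SE in the OPCs labeled TNFR2-/- (limma adjusted p = 0.951 and 0.44). It fell in every culture labeled TNFR2-/-. With cultures as a block the adjusted p was 0.743 in WT and 0.0220 in the OPCs labeled TNFR2-/-, the latter below the 1.5-fold limit.

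The call on *Esam* rests on few reads and was not firm. It was lost without TNFR2-/- St replicate 2 (adjusted p = 0.0848) or 5 (0.115), without WT St replicate 2 (0.0711), 3 (0.102) or 4 (0.109), without WT NS replicate 4 (0.0550) and without culture 5 (−1.55, 0.0733). Over 25 alternatives the difference was −2.37 to −1.39 and the adjusted p 0.0118 to 0.115. The genes most like *Esam* over the 12 libraries were *Dcun1d3*, *Glt8d2* and *Basp1* (Pearson's r 0.974, 0.973 and 0.970).

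Markers of vessel and connective tissue cells were set beside *Esam* and *Mcam*, since these proteins are known from such cells. Of the 10 endothelial markers, *Cdh5* (0 to 5 reads in a library), *Tie1* (0 to 1), *Emcn* (0 to 9) and *Tek* (1 to 6) were near 0, *Cldn5* (6 to 40) and *Egfl7* (17 to 33) were low, and *Flt1* (615 to 1697), *Kdr* (63 to 224), *Vwf* (38 to 176) and *Slco1a4* (37 to 181) were present in every library. The summed level of the 10 endothelial markers was 3.21 to 5.11 RPKM in WT NS, 3.50 to 4.51 in TNFR2-/- NS, 4.09 to 6.10 in WT St and 3.93 to 6.62 in TNFR2-/- St. The 10 markers of mural cells and fibroblasts summed to 191 to 629 RPKM in WT NS and 95.7 to 378 in TNFR2-/- NS, and to 241 to 570 in WT St and 64.4 to 324 in TNFR2-/- St. Their median log2 fold change between genotypes was −0.62 without stimulation and −1.02 with it over 7 tested genes, of which 0 were called, against 0.04 and −0.003 for all genes tested. *Acta2*, *Tagln*, *Col1a1* and *Pdgfrb* had differences of −1.72 to −0.62, and *Rgs5*, *Kcnj8* and *Lum* of −0.15 to 0.17. *Pdgfrb* and *Col1a1* ranged from 4.04 to 11.3 and 33.8 to 116 FPKM in WT St and from 3.03 to 4.51 and 10.7 to 21.9 in TNFR2-/- St. Culture 5 had the lowest sum of these markers, the lowest *Esam* and the lowest *Mcam* among the libraries labeled TNFR2-/-. Culture 2 had the highest sum and nearly as little *Esam*. Most reads of the sum were those of *Acta2* (2007 to 25471 in a library) and *Tagln* (1782 to 14252). *Rgs5*, *Kcnj8*, *Abcc9*, *Higd1b*, *Dcn* and *Lum* had at most 37 reads each. In cultures 2, 4 and 5 labeled TNFR2-/-, *Pdgfrb* was at 11.3, 13.5 and 10.5 FPKM without stimulation and 3.03, 4.51 and 3.43 with it. *Col1a1* was at 29.1, 27.0 and 13.5, and then at 20.4, 21.9 and 10.7. In WT cultures 2, 3 and 4, *Pdgfrb* was at 18.9, 11.8 and 27.3 FPKM without stimulation and 11.3, 4.04 and 10.3 with it. *Col1a1* was there at 79.35, 39.6 and 57.9, and then at 116, 33.8 and 46.6. *Pdgfrb* had 12 to 18 reads in a library of TNFR2-/- St and 16 to 45 in WT St. In bulk samples, fewer cells of a type and less RNA per cell cannot be told apart, and the part of these cells in the *Esam* and *Mcam* results was not tested.

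**Figure D5:**
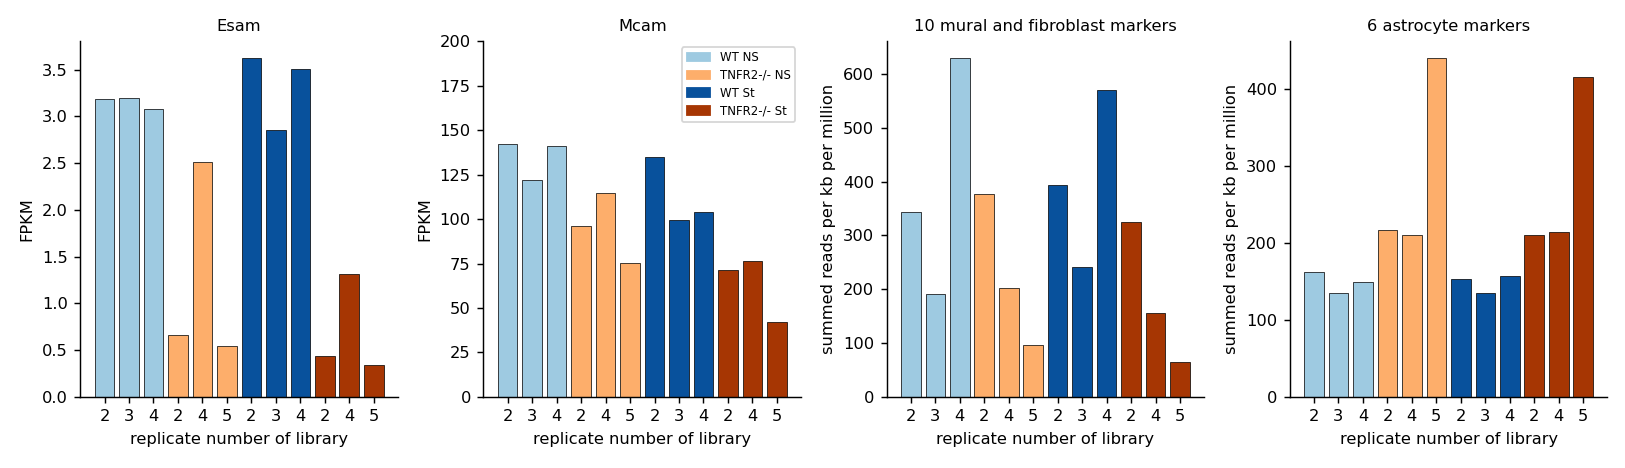
FPKM of *Esam* and *Mcam*, and the summed RPKM of 10 mural and fibroblast markers and of 6 astrocyte markers, with 1 bar for each library, colored by group and numbered by replicate. *Esam* is near 3 FPKM in all 6 WT libraries and at 0.345 to 2.51 in the 6 others, and replicate 5 labeled TNFR2-/- has the lowest mural sum and the highest astrocyte sum in both conditions.

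*Alcam* (ENSMUSG00000022636; chromosome 16, 52248996 to 52454074, minus strand), the ligand of the T cell protein CD6, was among the most abundant members per length. WT NS libraries had 220, 273 and 239 FPKM and those labeled TNFR2-/- NS had 185, 195 and 163, without overlap. That difference passed the adjusted p but was below the fold limit, so that it was no call (−0.43 ± 0.11 SE, 0.744 times, adjusted p = 0.0352), and without culture 5 it was −0.35 (adjusted p = 0.101). With stimulation *Alcam* was at 229, 278 and 234 FPKM in WT and 202, 233 and 200 in the OPCs labeled TNFR2-/- (genotype −0.22 ± 0.11 SE, adjusted p = 0.217). The change with stimulation was 0.02 ± 0.11 SE in WT and 0.22 ± 0.11 SE in the OPCs labeled TNFR2-/- (limma adjusted p = 0.945 and 0.159). *Alcam* was higher with stimulation in every culture labeled TNFR2-/-. With cultures as a block the change there had adjusted p = 0.0044, below the fold limit, and that in WT had 0.757.

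*Ncam1*, the neural cell adhesion molecule, differed little between genotypes. Its FPKM was 1002, 1108 and 1069 in WT NS, 948, 988 and 1301 in TNFR2-/- NS, 855, 966 and 981 in WT St and 804, 914 and 1097 in TNFR2-/- St. The log2 differences between genotypes were 0.01 ± 0.13 SE (95% confidence interval −0.28 to 0.31) and −0.003 ± 0.13 SE (−0.30 to 0.29), and those with stimulation −0.18 and −0.20 ± 0.13 SE, none of them called. In the block by cultures the latter had adjusted p = 0.0112 and 0.00574, below the fold limit. *L1cam* had 78 to 187 reads in each unstimulated library and 79 to 128 in each stimulated one. Its 4 log2 fold changes lay between −0.18 and 0.10 with an SE of 0.22, and none was called. The highest unstimulated value of both *Ncam1* and *L1cam* was in replicate 5 labeled TNFR2-/-.

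Between genotypes, then, 0 of 9 tested members were called without stimulation by limma (5 had an unadjusted p under 0.05, as did 30.2% of all genes, and voom called 1, *Esam*, with 3.45% of all genes), where 2.90% of all genes were, and 1 of 9 was called with stimulation, *Esam*. By sign, *Icam1*, *Icam4*, *Icam5* and *Vcam1* had higher values, and *Alcam*, *Mcam* and *Esam* lower ones, in the TNFR2-/- groups with and without cytokines. The difference of *Icam1* in stimulated OPCs was −0.25 with the replicate number as a block, and these signs carry no test. The libraries of the genotypes did not overlap for 4 of the 9 tested members without stimulation and for 3 with it, against 34.2% and 32.7% of all genes tested. Without culture 5, 0 of the 9 were called in either condition by limma, *Vcam1* was at 0.46 and 0.42, *Icam1* in stimulated OPCs at 0.17 and *Ncam1* at −0.13 and −0.12. The test of whether the cytokines acted differently in the genotypes called 0 of 9 members by limma, 0 by voom and 0 at an unadjusted p under 0.05 (7.95% of all genes had one), and 0.00553% of all genes, that is 1 gene.

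Other genes of adhesion were taken from lists of 58 genes, 51 of which passed the filter. With stimulation 5 rose and 1 fell in WT, and 6 rose and 1 fell in the OPCs labeled TNFR2-/-, where 7.53% and 10.1% of all genes were called in either direction. The median log2 fold change over the 51 was −0.02 and 0.01. The largest increases were those of *Madcam1* and *Sele*. *Madcam1*, a vascular ligand of the integrin α4β7, was listed at 0 to 0.0505 FPKM in the 6 unstimulated libraries and at 1.86 to 4.50 in the stimulated ones (log2 fold change 2.42 in WT and 2.80 in TNFR2-/-). *Sele*, the endothelial selectin that catches rolling leukocytes, went from 0.0116–0.0451 to 1.35–2.63 FPKM (2.31 and 2.54). Both were called in both genotypes. They passed the filter of 0.1 FPKM, and reached the mean of 1 FPKM needed for a call, only through the stimulated libraries. A gene as low without stimulation that had not risen could be neither tested nor called. *Cldn5*, of the endothelial markers, was at 0.83 in WT (adjusted p = 0.112) and rose by 0.98 in the OPCs labeled TNFR2-/- (0.0438). It was at 0.341 to 0.764 FPKM in the unstimulated libraries, and also reached the mean of 1 FPKM only through the stimulated ones. The other 5 tested endothelial markers were not called, and the part of such cells was not tested.

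On the side of the partners, 5 of the 10 listed integrin and CD6 genes were high enough to test. *Itga4*, a subunit of the VCAM1 receptor VLA-4, fell from 2.71–3.86 to 0.939–1.91 FPKM in WT (−0.98 ± 0.23 SE, adjusted p = 0.0157) and from 1.68–2.81 to 0.905–1.59 in the OPCs labeled TNFR2-/- (−0.74 ± 0.23 SE, 0.0401). The latter call was lost with no filter (0.0822), median-of-ratios scaling (0.0843) or the 6 libraries alone (0.0784). It was also lost without culture 5 (0.0738) and without any of several libraries (up to 0.1325). The WT call was lost without WT NS replicate 2 (0.0655) or WT St replicate 4 (0.0660). *Itga9*, a subunit of another VCAM1 receptor, rose from 21.0–22.7 to 52.1–60.1 FPKM in WT (1.33 ± 0.12 SE, adjusted p = 3.21e-05) and from 15.9–21.7 to 44.8–58.7 in the OPCs labeled TNFR2-/- (1.39 ± 0.12 SE, 1.73e-05). The leukocyte integrin genes *Itgal* and *Itgb2*, whose products together form the ICAM1 receptor LFA-1, were at 0 to 0.787 and 0 to 0.0668 FPKM. *St8sia4*, an enzyme that adds polysialic acid to NCAM1, rose by 0.73 and 0.84 on the log2 scale, both called. Its WT call was lost without WT NS replicate 2 (0.0697) or 4 (0.0683) or WT St replicate 3 (0.0679) or 4 (0.0553). *Jam3*, a junctional adhesion molecule, was called in WT (0.59, 1.504-fold), barely above the fold limit. In the OPCs labeled TNFR2-/- it was below that limit (0.42, 1.338-fold, adjusted p = 0.00330). *Nrcam*, of the L1 family, was called in the OPCs labeled TNFR2-/- (0.67) and was below the fold limit in WT (0.55, adjusted p = 0.0355). The genotypes did not differ detectably in the change of *Jam3* or *Nrcam* (interaction adjusted p = 0.766 and 0.951). The *Jam3* call fell below the fold limit with quantile normalization (0.58) or arrayWeights (0.574). It also did so without WT NS replicate 2 (0.53) or WT St replicate 3 or 4 (0.582 each). The *Nrcam* call was lost with the 6 libraries alone (adjusted p = 0.0766). It fell below the fold limit without TNFR2-/- NS replicate 2 (0.558) or 4 (0.578) or TNFR2-/- St replicate 5 (0.545).

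*Pvr*, the poliovirus receptor and a nectin-like adhesion molecule, was the only one of the 51 called between genotypes, in unstimulated OPCs, where 2.90% of all genes were called. It was at 351, 493 and 493 FPKM in WT NS and at 181, 261 and 124 in TNFR2-/- NS (−1.29 ± 0.29 SE, 0.410 times, adjusted p = 0.0258). That call was lost with the 6 libraries alone (adjusted p = 0.0884), without WT NS replicate 3 (0.103) or 4 (0.0886) and without TNFR2-/- NS replicate 2 (0.0641) or 5 (0.0792), and held without culture 5 (−1.02, 0.0399). With stimulation the difference was −1.02 ± 0.29 SE (0.494 times, adjusted p = 0.0613), and the interaction was 0.27 ± 0.40 SE (adjusted p = 0.933). *Pvr* rose with stimulation in the OPCs labeled TNFR2-/- (0.93 ± 0.29 SE, adjusted p = 0.0349). In WT it went from 351–493 to 592–789 FPKM, without overlap, which missed the threshold (0.67, adjusted p = 0.158). With cultures as a block both passed (adjusted p = 6.47e-05 and 0.000360, where 11.3% and 8.79% of all genes were called). The call in the OPCs labeled TNFR2-/- was lost with no filter (0.0686), with the 6 libraries alone (0.117) and without any of several libraries (up to 0.123). In stimulated OPCs 0 of the 51 were called between genotypes by limma, with 13 at an unadjusted p under 0.05, where 26.7% of all genes were, and 1 called by voom, *Pvr*.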

How the data were processed

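RNA of 12 OPC libraries was sequenced, in 4 groups of 3. The authors deposited FPKM values in 1 table of NS and 1 of St libraries. Per the labels and methods, reads were trimmed with Trim Galore and aligned with STAR to GRCm38; the counter's strand setting is not given in the sources used here, and the methods name a BGISeq-500 platform where the labels name Illumina protocols. Of 45792 entries, 229 that shared 99 symbols were left out. Low values were whole multiples of 1 read for 26633 of 26636 genes (tolerance 0.001), from which reads and library totals were recovered. The 2 tables were thus scaled alike, each library by its own total.

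Values were tested with limma 3.58.1 in R 4.3.3 on log2(FPKM + 0.5) with 4 group means and a trended prior, and p-values were adjusted by Benjamini-Hochberg over the 18081 genes that averaged 0.1 FPKM or more. Fold changes are on that scale and understate the change of low genes. Calls needed adjusted p of 0.05 or less, a 1.5-fold change and a mean of 1 FPKM. Code was tested on simulated data. Within a genotype, NS and St libraries of the same number deviated together from their group means (r 0.338 to 0.649 in 6 pairs, against −0.455 to 0.088 in 12 other pairs, 13554 genes), so that they were treated as 1 culture in the fits with a block. Across genotypes a shared number did not pair libraries (−0.078 to 0.204 in 8 pairs), and the numbers 3 and 5 each occurred in only 1 genotype. Genotype differences from the fit with the replicate number as a block are thus not paired ones. Whether replicates came from separate litters is not stated, so that p-values measure only the spread between these libraries. Exons and positions are from GENCODE M21, and promoters from RefSeq (GRCm38.p6). The members, gene lists and motifs were chosen with earlier results of these data known. All 10 members were named, with, from each list of other adhesion genes, up to 4 called genes per direction with the largest change, 5 response genes (1 other gene of that list is not reported here), the 3 genes most like each called member, and markers as sums, with single markers where their list moved with a member. *Tnfrsf1b*, *Ptprc*, *Itgal*, *Itgb2*, *Gfap*, the single endothelial markers and the genes of the last section were named after their values were seen.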

Additional observations from a re-analysis of the deposited data

How the results depend on the processing

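Alternatives changed the pseudocount, filter, scaling, trend, weights, fold limit, libraries, block and test, and left out each library. *Icam1* and *Vcam1* stayed called and higher with stimulation in both genotypes in each of them, and no called value changed sign. Without stimulation, 0 members were called between genotypes, but 2 with only genes of at least 1 FPKM tested, 1 with arrayWeights (*Esam*), 1 with no fold limit (*Alcam*) and 1 with voom on recovered reads (*Esam*). Leaving out a library gave 0 to 1, with 1 without TNFR2-/- NS replicate 2 or 4 or TNFR2-/- St replicate 4. With stimulation, 1 was called between genotypes, but 2 with genes of at least 1 FPKM, arrayWeights, voom or the replicate block, and 0 with no filter, with the 6 compared libraries alone or without culture 5. Leaving out a library gave 0 to 2, with 0 without WT NS replicate 4, any WT St replicate or TNFR2-/- St replicate 2 or 5, and 2 without TNFR2-/- NS replicate 4 or 5 or TNFR2-/- St replicate 4. For stimulation of OPCs labeled TNFR2-/-, 2 members were called and 4 with either replicate block, which added *Icam4* and *Mcam*. In WT either block also added *Icam4* (3 members against 2). So did arrayWeights and leaving out WT St replicate 3 (limma adjusted p = 0.0242 to 0.0359 over these fits). The block within a genotype changed no other call on a member. *Icam4* could be called only through its stimulated values, as given above.

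In the lists of other adhesion genes, 1 was called between genotypes without stimulation, but 0 with the 6 libraries alone, 2 with arrayWeights and 4 with no fold limit (0 to 2 when leaving out a library). In stimulated OPCs 0 were, but 2 with arrayWeights, 3 with no fold limit, 3 with the replicate block and 1 with voom (0 to 2 when leaving out a library). For stimulation, leaving out a library gave 3 to 6 in WT (6 with all; 3 without WT NS replicate 2 or WT St replicate 4) and 4 to 7 in the OPCs labeled TNFR2-/- (7 with all; 4 without TNFR2-/- NS replicate 2), where the 6 libraries alone gave 4. The cause of these moves was not tested. Among all genes, called increases and decreases with stimulation in the OPCs labeled TNFR2-/- numbered 978 and 846, and 1108 and 555 after median-of-ratios scaling; without stimulation the genotypes gave 293 and 231, and 213 and 261 after quantile normalization. No member's call changed under either scaling. Reads limit what can be said of *Icam2*, *Icam4* and *Esam*, which had at most 33 reads in any library.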

Other observations

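Of the neuron markers, 8 genes that were summed in each library, the total was 31.1 to 48.0 RPKM in the 6 unstimulated libraries and 217 to 275 in the 6 stimulated ones. The sum was not tested. *Tubb3*, a neuronal tubulin, was called upward: it rose by 3.06 ± 0.18 SE on the log2 scale in WT (limma adjusted p = 9.65e-07) and by 3.19 ± 0.18 SE in the OPCs labeled TNFR2-/- (adjusted p = 5.96e-07). *Snap25*, a synaptic protein gene of the same list, was called downward, with falls of 0.97 and 0.94. The other 6 neuron markers were not called in either comparison. *L1cam* and *Icam5*, the members known from neurons, were not called in these comparisons.

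The mature oligodendrocyte markers summed to 110 to 171 in WT NS, 134 to 259 in TNFR2-/- NS, 119 to 168 in WT St and 105 to 221 in TNFR2-/- St, and 0 of the 7 were called in any comparison by limma. The microglia markers with recovered reads, 8 of 10, summed to 0.253 to 0.703 in all 12 libraries. *Slc1a2*, the glutamate transporter of astrocytes, was the 1 of 6 astrocyte markers called between genotypes, in stimulated OPCs (1.01 ± 0.25 SE, adjusted p = 0.0451). In that comparison 1.80% of all genes were called. The call was lost with no filter (0.0780), with the 6 libraries alone (0.0783) and without any of several libraries (up to 0.132). It held without culture 5 (0.77, 0.0438). All 6 markers were higher than in WT by log2 fold change, stimulated or not. Their median difference was 0.81 without stimulation and 1.16 with it, against 0.04 and −0.003 for all genes tested.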
